A study of Mus musculus with 8 samples.

Results

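A group of 9 interferon-stimulated genes was followed in the cerebral cortex of newborn mice: Ifit1, Ifit3, Isg15, Stat2, Irf7, Irf9, Bst2, Ifitm3 and Oasl2. They were chosen by name, and their values were obtained by summing, in each library, the estimated reads and the TPM of all transcripts that carry the symbol. All 9 were found, each under 1 gene identifier, among 53302 gene symbols in the series, and all 9 were among the 20083 genes with enough reads to be tested. In the GENCODE M21 annotation of GRCm38, Stat2 lies at chr10:128270559-128292849, Irf9 at chr14:55603571-55610030, Ifit3 at chr19:34583531-34588731, Ifit1 at chr19:34640871-34650009 and Oasl2 at chr5:114896936-114912234, all on the plus strand. On the minus strand, Irf7 lies at chr7:141262706-141266481, Isg15 at chr4:156199424-156200818, Bst2 at chr8:71534255-71537456 and Ifitm3 at chr7:141009586-141010770. The compared groups were 4 libraries from R342X mutants, which carry an R342X mutation in Phf6, and 4 libraries from wild type. Every library came from FVB/N cortex at P0, the day of birth, and the labels name no treatment. The X chromosome carries Phf6, whose nuclear product has PHD-type zinc fingers, and mutations of the human gene cause Börjeson-Forssman-Lehmann syndrome. The comparison asks whether the mutation changes cortical transcript levels. The labels give no sex, litter, batch or animal for a library, nor how the allele was made or bred. Libraries are called by the replicate numbers of the labels. If several were made from 1 animal, the p-values below capture no more than the spread of these 8 samples, and that spread may be technical.

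Interferons are secreted proteins through which a cell that senses foreign nucleic acid warns its neighbours. Type I and type III interferons bind surface receptors, the attached kinases Jak1 and Tyk2 phosphorylate Stat2, and Stat2 acts with Irf9 in the factor ISGF3, which binds a DNA element called the ISRE. The genes switched on in this way restrict viruses at entry, translation, replication and release, and in brain tissue microglia, vessel cells and cells of the brain's borders are known for responding strongly. Several members also have a low level without any interferon.

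The promoters of the members are shown because the ISRE is the element through which ISGF3 acts on genes of this kind. In windows of 300 bases around the start of each gene (250 before it and 50 after it; RefSeq gene starts, GRCm38, which is the C57BL/6J and not the FVB/N genome), the ISRE core was searched on both strands, spelled as GAAA, any 2 letters and GAAA again, or as TTTC, any 2 letters and TTTC on the other strand. It occurred in windows of 6 of the 9 members, namely Ifit1, Ifit3, Isg15, Bst2, Ifitm3 and Stat2, and in 1131 of 32851 windows of all genes (3.44%). In the sequences below, each written 5′ to 3′ on the strand of its gene, capitals mark the matches, and runs of capitals longer than 10 letters are overlapping matches.
Isg15, chr4:156200871-156200900, minus strand, 3 overlapping matches: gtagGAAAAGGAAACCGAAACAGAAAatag
Bst2, chr8:71537580-71537609, minus strand, 2 overlapping matches: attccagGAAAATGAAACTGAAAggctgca
Ifitm3, chr7:141010723-141010752, minus strand: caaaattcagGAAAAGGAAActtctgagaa
Ifitm3, chr7:141010706-141010735, minus strand: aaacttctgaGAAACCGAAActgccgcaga
Stat2, chr10:128270266-128270295, plus strand: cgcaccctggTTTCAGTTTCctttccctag
In Isg15 the first match begins 78 bases before the gene start, in Bst2 130 bases before it and in Stat2 222 bases before it, whereas both matches of Ifitm3 lie just after the annotated start. Ifit3 and Ifit1 lie on the plus strand of the same stretch of chromosome 19, 52139 bases apart, and are shown at greater length because their fold changes, given below, had opposite signs on genotype alone.
Ifit3, chr19:34583329-34583528, plus strand: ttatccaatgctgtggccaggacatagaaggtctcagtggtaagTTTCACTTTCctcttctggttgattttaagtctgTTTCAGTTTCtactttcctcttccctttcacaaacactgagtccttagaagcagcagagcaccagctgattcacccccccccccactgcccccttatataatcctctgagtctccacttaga
Ifit1, chr19:34640671-34640870, plus strand: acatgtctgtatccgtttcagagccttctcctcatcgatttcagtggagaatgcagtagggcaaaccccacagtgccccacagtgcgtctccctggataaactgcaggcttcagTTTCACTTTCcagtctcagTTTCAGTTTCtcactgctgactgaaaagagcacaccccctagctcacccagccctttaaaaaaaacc
Each of the 2 stretches holds a TTTCACTTTC and, after it, a TTTCAGTTTC. The letters TTCNNNGAA of the GAS element, another element of interferon-responsive promoters, occurred in windows of 2 members, Bst2 and Ifitm3, where they overlap the matches above, and in 2726 of all windows (8.3%). A match is a description of letters and was not tested as a binding site, and the windows of Irf7, Irf9 and Oasl2 held neither set of letters. For Irf9 the RefSeq starts lie 414 and 1008 bases inside the gene as GENCODE draws it, so its windows do not include the start of the position given above.

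Totals were 30469745 to 39453169 estimated reads in mutant libraries and 48841467 to 74266937 in wild-type libraries, so genes of low level were read more deeply in wild type. Phf6 was lower in mutants, at 39.3 to 43.6 CPM against 72.1 to 91.9 CPM in wild type (log2 fold change -0.91 ± 0.08 SE, adjusted p = 0.00226). CPM here means estimated reads scaled to a fixed library total after TMM scaling, a level that does not correct for gene length. On the first principal component, which held 35.5% of the variance, the libraries fell into 2 sets that cross the genotypes. Mutant replicates 1, 2 and 3 stood with wild-type replicate 1, and mutant replicate 4 with wild-type replicates 2, 3 and 4. Reads assigned to retained-intron transcripts made up 3.67% to 3.87% of the libraries of the first set and 4.05% to 4.22% of those of the second. Values within each set, which compare 3 mutant libraries with 1 wild-type library and 1 mutant library with 3 wild-type libraries, are therefore given beside the pooled ones for the members.

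Of the 9 members, 0 passed the test between genotypes after adjustment over all genes tested (edgeR quasi-likelihood test on genotype alone, Benjamini-Hochberg adjusted p from 0.243 to 0.987). The same test called 4 of 20083 genes, or 0.0199% of them. Of the members, 2 had an unadjusted p under 0.05, Ifit3 and Oasl2, both with higher values in mutants, while 13.7% of all tested genes had one in either direction. With the library set added to the model, 0 of 9 members were called, against 0.677% of all genes, and 2 members, Ifit3 with higher and Stat2 with lower values in mutants, had an unadjusted p under 0.05, as did 13.7% of all genes in that fit. By DESeq2's Wald test 0 of 9 were called, with 4 left without an adjusted p by its filter on low levels, against 2.02% of all genes. The log2 fold change, mutant over wild type, was above 0 for 8 of the 9 members (7 with the library set as a term) and for 50.3% of all genes. Its median was 0.15 over the members and 0.00 over all genes, and single members ran from -0.24 to 0.74. The mutant libraries all lay above the wild-type libraries for 2 members and all below for 0, and the ranges overlapped for the other 7. Over all tested genes those shares were 2.94% and 3.2%. The list was not tested as a group, because its members were chosen with earlier results of these data known.

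**Figure D1:**
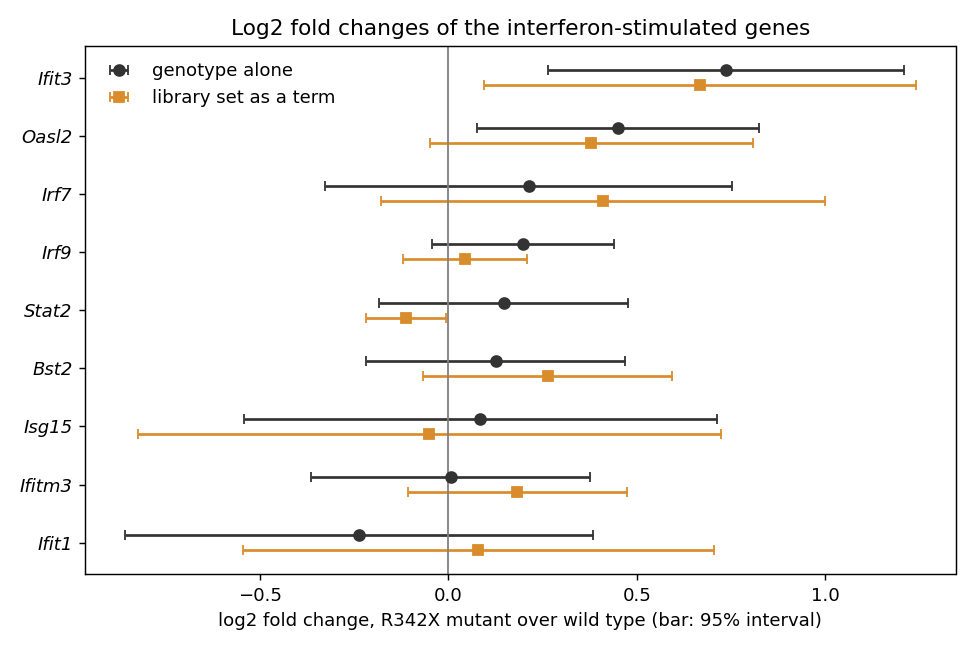
Log2 fold change (mutant over wild type, horizontal axis) of each member, with its 95% interval, from edgeR on genotype alone (circles) and with the library set as a term (squares). On genotype alone the intervals of Ifit3 and Oasl2 lie above 0, and those of the other members include 0.

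Ifit3 had the highest fold change of the members. It had 0.602, 0.456, 0.689 and 0.649 CPM in mutant libraries 1 to 4, against 0.450, 0.324, 0.326 and 0.354 CPM in wild-type libraries 1 to 4. Every mutant library lay above every wild-type library, but mutant replicate 2 and wild-type replicate 1 nearly met. It averaged 0.599 ± 0.102 CPM over mutant libraries and 0.364 ± 0.059 CPM over wild-type libraries (SD, 4 libraries per genotype), a 1.67-fold difference (log2 fold change 0.74 ± 0.21 SE, 95% interval 0.26 to 1.21, adjusted p = 0.243). These levels rest on 13.8 to 25 estimated reads per library. Within the first library set the log2 fold change was 0.33 and within the second 0.88, the same direction in both. The near-identical neighbour Ifit3b, which shares sequence with it, held 1.0 to 7.7 estimated reads per library, so Salmon's division of shared reads between them is uncertain. With the reads of both summed, an alternative chosen after seeing the data, the log2 fold change was 0.62 (adjusted p = 0.290).

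Ifit1, which recognises viral RNA by its cap structure and blocks its translation, was the one member with a negative fold change. It had 0.226, 0.359, 0.359 and 0.531 CPM in mutant libraries 1 to 4, whereas it had 0.327, 0.438, 0.408 and 0.538 CPM in the wild-type ones. The groups overlapped almost wholly, with replicate 4 the highest in each, and the libraries split by library set, those of the first at 0.226 to 0.359 CPM and those of the second at 0.408 to 0.538 CPM. The log2 fold change was -0.24 ± 0.28 (SE, 95% interval -0.86 to 0.38, adjusted p = 0.702), on 9.0 to 35.4 estimated reads per library. Within the library sets it was -0.08 and 0.20, and with the set as a term 0.08 ± 0.29, so its direction was not settled. Across the 8 libraries Ifit1 and Ifit3 did not move together (r of log2 CPM -0.34), and the promoters of both carry ISRE letters.

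Oasl2, a relative of the enzymes that make oligoadenylates upon sensing double-stranded RNA, was the second member whose groups did not overlap. Mutant libraries 1 to 4 had 1.28, 1.04, 1.6 and 1.21 CPM, and wild-type libraries 1 to 4 had 1.02, 0.940, 0.992 and 0.815 CPM. The lowest mutant library, replicate 2, and the highest wild-type library, replicate 1, again lay close together. The log2 fold change was 0.45 ± 0.17 (SE, 95% interval 0.08 to 0.83, adjusted p = 0.309), a 1.37-fold difference on 32.0 to 73.2 estimated reads per library. It was 0.32 within the first library set and 0.39 within the second. With the set as a term it was 0.38 ± 0.20 (SE, adjusted p = 0.432), and its 95% interval, -0.05 to 0.81, included 0. Of its 9 transcripts, a nonsense-mediated decay transcript took 40.8, 16.8, 37.5 and 23 estimated reads in mutant libraries 1 to 4, against 0, 32.2, 43.2 and 41.8 in wild-type libraries 1 to 4. The absence from wild-type replicate 1 was not shared by any other library. Scaled for depth, this transcript had 1.01, 0.544, 0.982 and 0.639 TPM in mutant libraries 1 to 4, and 0, 0.472, 0.543 and 0.572 TPM in the wild-type ones. Mutant replicate 2 lay between wild-type replicates 3 and 4, and the other mutants lay above all wild-type libraries. Its share of Oasl2 TPM was 68.0% ± 12.4 in the mutants and 47.0% ± 34.6 in wild type (SD, 4 libraries per genotype), and no test was made of it. Salmon's division of Oasl2 reads among the 9 transcripts has no error estimate here.

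Isg15, a ubiquitin-like protein that is attached to other proteins upon interferon signalling, had 0.276, 0.359, 0.165 and 0.236 CPM in mutant libraries 1 to 4, against 0.286, 0.243, 0.245 and 0.200 CPM in wild-type libraries 1 to 4. The mutant libraries spread on both sides of the wild-type libraries. The log2 fold change was 0.09 ± 0.28 (SE, 95% interval -0.54 to 0.71, adjusted p = 0.905). It was -0.14 within the first library set and 0.04 within the second, and -0.05 ± 0.36 with the set as a term, so its sign turned. With 5.6 to 17.6 estimated reads per library, a difference of the size seen for Ifit3 lies just outside this interval, and smaller ones in the same direction lie within it.

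**Figure D2:**
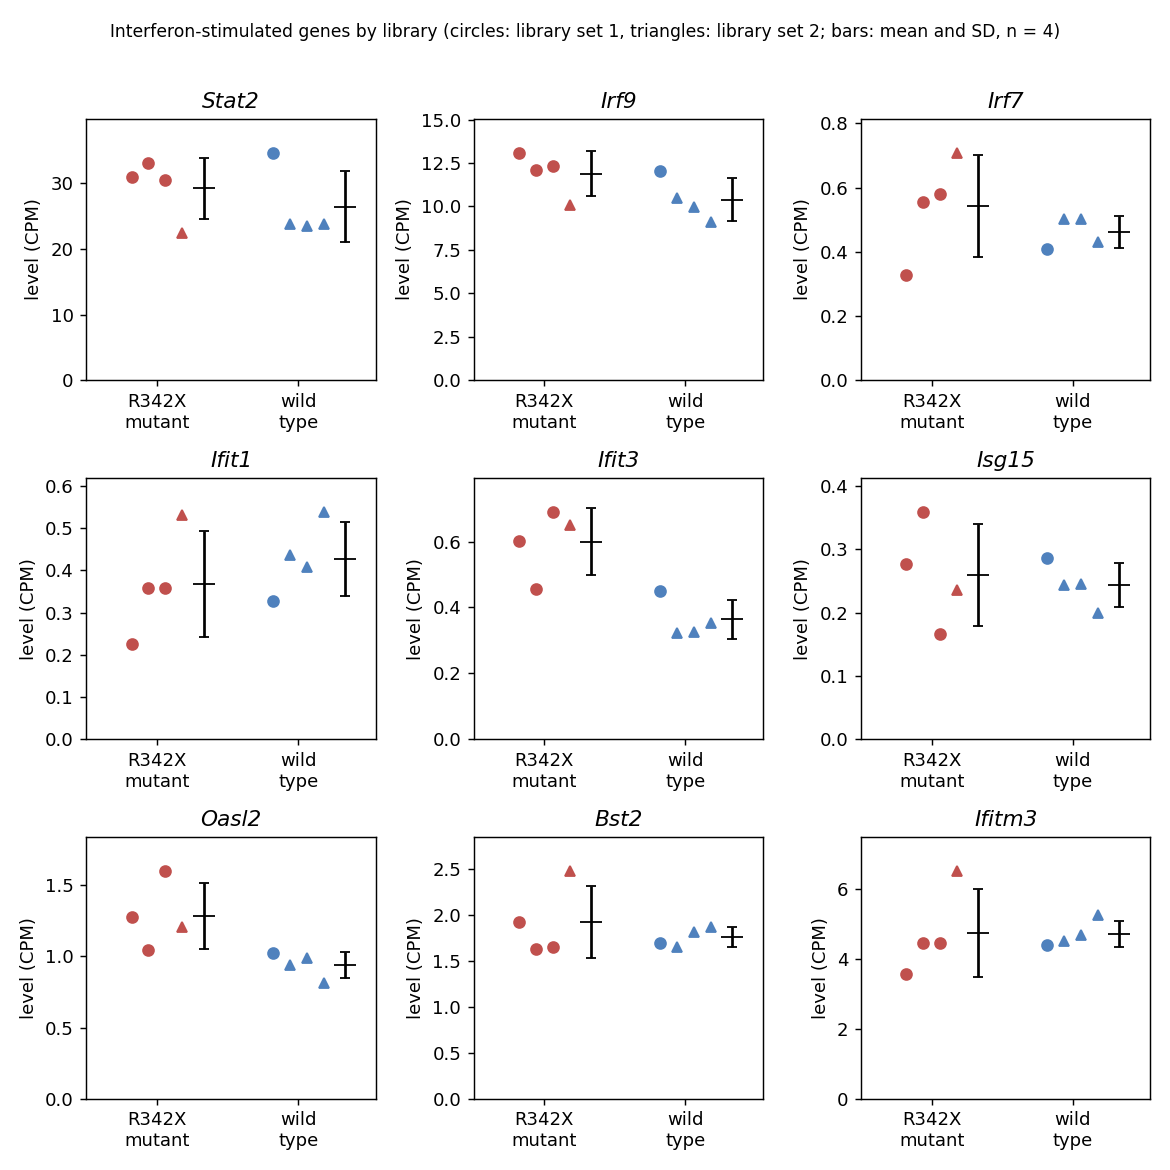
Level of each member in CPM (vertical axis, starting at 0) in every library, mutants left and wild type right, with circles for the first library set, triangles for the second, and bars for the mean and SD of 4 libraries. Ifit3 and Oasl2 are the panels in which the groups do not overlap; in the Stat2 panel wild-type replicate 1 lies with the mutant libraries of its set.

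Stat2 and Irf9 encode factors of the pathway itself and had 761.3 to 1729.0 and 341.4 to 732.0 estimated reads per library, more than any other member. Stat2, the subunit of ISGF3 that activates transcription, had 31.0, 33.1, 30.5 and 22.5 CPM in mutant libraries 1 to 4, against 34.7, 23.9, 23.5 and 23.9 CPM in wild-type libraries 1 to 4. The libraries split by library set and not by genotype: the 4 libraries of the first set lay between 30.5 and 34.7 CPM and the 4 of the second between 22.5 and 23.9 CPM. On genotype alone the log2 fold change was 0.15 ± 0.15 (SE, 95% interval -0.18 to 0.48, adjusted p = 0.653). It was -0.14 within the first set and -0.08 within the second, and -0.11 ± 0.05 with the set as a term (adjusted p = 0.335), so the pooled direction turned once the set was taken into account.

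Irf9, the DNA-binding subunit of ISGF3, had 13.1, 12.1, 12.4 and 10.1 CPM in mutant libraries 1 to 4 and 12.1, 10.5, 9.95 and 9.10 CPM in wild-type libraries 1 to 4. Its groups overlapped, and all libraries of the first set lay above all of the second. The log2 fold change was 0.20 ± 0.11 (SE, 95% interval -0.04 to 0.44, adjusted p = 0.431) on genotype alone, and 0.04 ± 0.08 with the set as a term. Within the sets it was 0.05 and 0.03. Irf9 overlaps Rnf31 on the same strand, so the division of reads between those genes is uncertain.

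Irf7, the factor that amplifies type I interferon production and is itself induced by interferon, had 0.326, 0.554, 0.579 and 0.708 CPM in mutant libraries 1 to 4. Wild-type libraries 1 to 4 had 0.409, 0.502, 0.503 and 0.431 CPM. The lowest library of all 8 was mutant replicate 1, and the 3 highest were the other mutants. The log2 fold change was 0.21 ± 0.24 (SE, 95% interval -0.33 to 0.75, adjusted p = 0.694) on 13 to 37 estimated reads per library. It was 0.19 within the first library set and 0.53 within the second. Of its 13 transcripts, 1 nonsense-mediated decay transcript held 0, 9.3, 8.3 and 10 estimated reads in mutant libraries 1 to 4 and 0 in every wild-type library. This transcript, noticed after its values were seen and not tested, had reads in those 3 mutants alone. Coding transcripts took 41.2% ± 35.7 of Irf7 TPM in the mutants and 87.6% ± 17.0 in wild type (SD, 4 libraries per genotype). Salmon's division of these few reads among the 13 transcripts has no error estimate here. A coding transcript of Irf7 likewise had 0.889 TPM in mutant replicate 4, 0.184 TPM in wild-type replicate 2 and 0 in every other library. Irf7 overlaps Phrf1 on the opposite strand, and reads of the 2 genes cannot be told apart where the counting did not use strand.

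Bst2 and Ifitm3 encode membrane proteins, Bst2 tethering budding virus particles to the cell surface and Ifitm3 hindering the fusion of virus and endosome. Bst2 had 1.93, 1.63, 1.65 and 2.48 CPM in mutant libraries 1 to 4, against 1.70, 1.65, 1.82 and 1.88 CPM in wild-type libraries 1 to 4 (log2 fold change 0.13 ± 0.15 SE, adjusted p = 0.715). Ifitm3 had 3.56, 4.47, 4.47 and 6.52 CPM in mutant libraries 1 to 4, against 4.40, 4.52, 4.70 and 5.26 CPM in wild-type libraries 1 to 4 (log2 fold change 0.01 ± 0.17 SE, adjusted p = 0.987). For both genes the highest library was mutant replicate 4, and the other mutant libraries lay among or below the wild-type libraries, apart from mutant replicate 1 for Bst2. The libraries also split by library set for Ifitm3, at 3.56 to 4.47 CPM in the first and 4.52 to 6.52 CPM in the second. Within the first library set, which does not hold mutant replicate 4, the log2 fold change was 0.03 for Bst2 and -0.09 for Ifitm3. Within the second, where it is the only mutant library, it was 0.47 for Bst2 and 0.43 for Ifitm3. Mutant replicate 4 was also the highest library in summed markers of several cell types of the brain's borders and vessels. Meningeal markers summed to 730.2 to 1161 CPM in the mutants and 670.1 to 836.3 CPM in wild type, and endothelial markers to 311.0 to 383.4 CPM in the mutants and 275.8 to 329.5 CPM in wild type, with mutant replicate 4 at the top of each. Their part in the values of Bst2 and Ifitm3 was not tested, and in bulk tissue more cells of a type and more RNA per cell cannot be told apart.

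Other marker lists overlapped between genotypes in their summed levels. Border macrophage markers summed to 53.3 to 76.0 CPM in the mutants and 43.6 to 58.0 CPM in wild type, and choroid plexus markers to 563.9 to 828.8 CPM in the mutants and 531.8 to 713.0 CPM in wild type, and mutant replicate 4 was again the highest. Microglial markers summed to 160.8 to 186.5 CPM in the mutants and 147.9 to 165.9 CPM in wild type, and markers of other leukocytes to 6.37 to 7.11 CPM in the mutants and 6.14 to 7.21 CPM in wild type, with Ncr1, a receptor of natural killer cells, at 0 in every library. Pericyte and smooth muscle markers summed to 199.7 to 272.2 CPM in the mutants and 202.2 to 241.6 CPM in wild type. Markers of the labelled tissue were plainly present, neuronal ones at 6547 to 6683 CPM in the mutants and 6625 to 6990 CPM in wild type, and those of astrocytes and radial glia at 1294 to 1446 CPM in the mutants and 1264 to 1362 CPM in wild type. Of 86 tested markers in the 9 lists, 0 were called on genotype alone by the edgeR test, 20 had an unadjusted p under 0.05 in the higher direction and 2 in the lower, and DESeq2 called 7. These shares were 25.6% of the markers at an unadjusted p under 0.05, against 13.7% of all genes, and 8.14% called by DESeq2, against 2.02% of all genes. Log2 fold changes lay above 0 for 9 of 12 tested markers of microglia, 6 of 8 of border macrophages, 2 of 5 of other leukocytes, 10 of 10 of endothelium, 7 of 10 of pericytes and smooth muscle, 8 of 10 of meninges, 7 of 8 of choroid plexus, 7 of 13 of neurons and 6 of 10 of astrocytes and radial glia. The single markers with the smallest p of their lists, which do not stand for the rest of the list, had log2 fold changes of 0.31 for Sall1 (microglia), 0.52 for Lyve1 (border macrophages), -0.15 for Ptprc (other leukocytes), 0.19 for Slc2a1 (endothelium), 0.50 for Tagln (smooth muscle), 0.17 for Pdgfra (meninges), 0.50 for Prlr (choroid plexus), -0.27 for Neurod6 (neurons) and 0.31 for Gja1 (astrocytes). With the library set as a term 6 of the 86 tested markers were called, against 0.677% of all genes. F13a1, Slc2a1, Acta2, Aldh1a2 and Igf2 were higher in mutants (log2 fold changes 0.22 to 0.89) and Neurod6 lower (-0.32). F13a1 of border macrophages had 0.69 ± 0.08 (SE, adjusted p = 0.00661) in that fit, against 0.24 ± 0.25 (SE, adjusted p = 0.657) on genotype alone. The part of any of these cell types in the members' values was not tested.

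**Figure D3:**
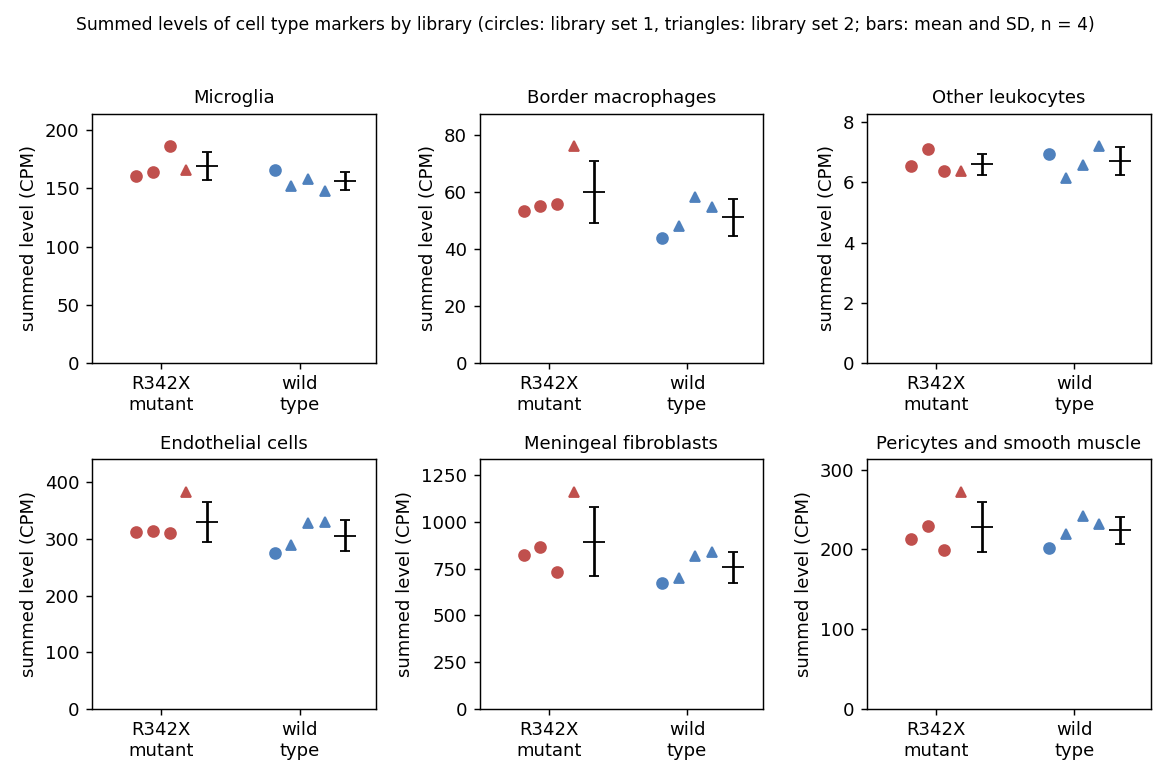
Summed CPM of 6 marker lists (vertical axis) in every library, mutants left and wild type right. Mutant replicate 4 has the highest sum for meningeal markers (1161 CPM), endothelial markers (383.4 CPM) and border macrophage markers (76.0 CPM).

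The members did not vary as one group across libraries. The mean of the members' centred log2 CPM was -0.04, 0.07, 0.09 and 0.22 in mutant libraries 1 to 4 and -0.01, -0.11, -0.10 and -0.11 in wild-type libraries 1 to 4. Mutant replicate 1 thus lay below wild-type replicate 1, and mutant replicate 4 was the highest. That library held the highest level of 3 members, Irf7, Bst2 and Ifitm3, and at the same time the lowest level of Stat2. Mutant replicate 1 held the lowest level of 3 members, Ifit1, Irf7 and Ifitm3, and the highest level of Irf9. The widest spread over the 8 libraries was that of Ifit1, with 1.12 log2 units between its lowest and highest library, and the narrowest that of Irf9, with 0.52. Ifit1 had 9.0 to 35.4 estimated reads per library and Irf9 341.4 to 732.0. The part of counting error in these spreads was not tested.

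Pairs of members moved together or apart across the 8 libraries, which are described without a test because they share depth, library set and genotype. Pearson's r of log2 CPM was 0.90 for Ifit1 with Ifitm3, 0.88 for Ifit3 with Oasl2, 0.87 for Stat2 with Irf9 and 0.75 for Irf7 with Ifitm3. It was -0.89 for Ifit1 with Irf9, -0.76 for Ifit1 with Stat2 and -0.73 for Irf9 with Ifitm3. Both ISGF3 subunits in the list thus ran opposite to Ifit1, and some members split wholly by library set. Stat2 and Irf9 were higher in all libraries of the first set than in any of the second. Ifit1 and Ifitm3 were higher in all libraries of the second. The sets were read from the first principal component of these same data, so genes that split by set are found by construction. How many of all genes do so was not counted, so the split is not shown to be particular to the members. Among 13942 genes of sufficient level, those whose log2 CPM followed the members' mean most closely were Crybg3 (r = 0.96), Ptpn14 (r = 0.95), Epb41l2 (r = 0.95), Matn4 (r = 0.94) and Snx9 (r = 0.94), none of which was called (log2 fold changes 0.13 to 0.32). The highest of so many correlations over 8 libraries can be this large by chance, and they were not tested.

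**Figure D4:**
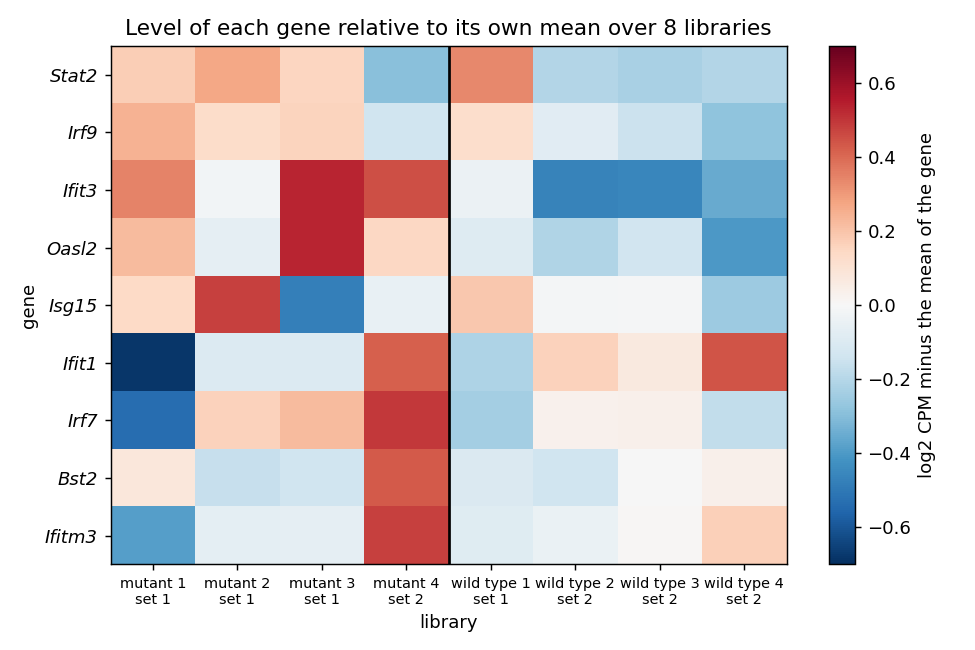
Log2 CPM of each member (rows) in each library (columns, mutants left), centred on the member's mean over the 8 libraries. Ifit3 and Oasl2 are above their mean in mutant replicates 1, 3 and 4 and below it in every wild-type column, whereas Stat2 is low in mutant replicate 4 and high in wild-type replicate 1.

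Levels of the members were ordered by TPM, which divides by effective transcript length and so allows comparison between genes. Stat2 came first with 24.9 ± 3.29 TPM in the mutants and 22.0 ± 3.83 TPM in wild type (SD, 4 libraries per genotype), followed by Ifitm3 with 17.8 ± 4.24 TPM in the mutants and 17.1 ± 0.931 TPM in wild type. Irf9 had 8.90 ± 1.24 TPM in the mutants and 7.41 ± 1.25 TPM in wild type, and Bst2 6.01 ± 1.06 TPM in the mutants and 5.26 ± 0.292 TPM in wild type. Each of the other 5 averaged about 1 TPM or less over the 8 libraries: Oasl2 1.00, Isg15 0.795, Irf7 0.636, Ifit3 0.542 and Ifit1 0.293 TPM. Only the steps between Ifitm3 and Irf9 and between Bst2 and Oasl2 were wider than the spread, with no overlap over the 8 libraries, and the ranges of all other neighbours in the order overlapped.

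The place of Stat2 at the top rests on how its transcripts were counted. Of its 8 transcripts, 6 are annotated as retained-intron transcripts, and these took 58.8% ± 5.79 of Stat2 TPM in the mutants and 59.9% ± 4.46 in wild type (SD, 4 libraries per genotype). Of Stat2 reads they took 16.8% ± 4.67 in mutants and 16.7% ± 3.13 in wild type. The coding transcript with reads had 11.29, 12.07, 10.89 and 7.0 TPM in mutant libraries 1 to 4, against 12.88, 7.44, 7.81 and 7.64 TPM in wild-type libraries 1 to 4. This coding transcript split by library set in the same way as the gene. For Irf9, coding transcripts took 81.5% ± 2.25 of the TPM in the mutants and 80.1% ± 1.78 in wild type, so its place does not rest on non-coding forms.

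Upstream of the members, interferon transcripts were nearly absent. Of 21 genes for interferons of types I, II and III, 18 had no read in any library and 3 had at least 1, with 0 to 1 estimated reads in all per mutant library and 0 to 3 per wild-type library. A count of 0 allows up to 0.0404 to 0.0985 CPM, depending on the library (3 reads, for counting error only), so a lower level was not detectable at this depth. All 6 receptor genes were tested and 0 were called, with a median log2 fold change of 0.05. Ifnar1, a chain of the type I receptor, had 0.05 ± 0.05 (SE, adjusted p = 0.643), and Ifngr1, a chain of the type II receptor, 0.16 ± 0.07 (SE, adjusted p = 0.355).

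Among the 10 other kinases and transcription factors of the pathway, 0 were called, 8 had log2 fold changes above 0, and the median was 0.19. With the library set as a term that median was 0.08, and the medians of the other lists moved to 0.04 for receptors, 0.08 for sensors, -0.04 for inhibitors and nucleases, 0.15 for the longer list of interferon-stimulated genes and 0.14 for MHC class I presentation. Jak1, the kinase at several interferon receptors, had 0.19 ± 0.08 (SE, adjusted p = 0.347). Irf2, which competes with Irf1 for its sites, had 0.28 ± 0.11 (SE, adjusted p = 0.326). With the set as a term the log2 fold change was 0.07 for Jak1 and 0.12 for Irf2. Of 14 tested sensors of nucleic acid and their adaptors, 0 were called and 9 lay above 0. Myd88, the adaptor of Toll-like receptors, had the smallest p of them (log2 fold change 0.36 ± 0.12 SE, adjusted p = 0.269), followed by Tlr7, a sensor of single-stranded RNA (0.32 ± 0.11 SE, adjusted p = 0.287). Of 14 tested inhibitors and nucleases, 0 were called, 5 lay above 0 and 9 below. Socs3, an inhibitor of Jak kinases, had 6.77, 6.55, 7.20 and 9.30 CPM in mutant libraries 1 to 4, against 8.37, 9.72, 11.6 and 11.5 CPM in wild-type libraries 1 to 4. Its groups overlapped through mutant replicate 4 and wild-type replicate 1, and its log2 fold change was -0.47 ± 0.14 (SE, adjusted p = 0.246), or -0.26 ± 0.09 (SE, adjusted p = 0.203) with the set as a term. Samhd1, which depletes the nucleotides that reverse transcription needs, had 0.22 ± 0.07 (SE, adjusted p = 0.259).

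A longer list of 67 further interferon-stimulated genes gave 54 tested genes, of which 0 were called, 31 had log2 fold changes above 0 and 23 below, with a median of 0.05. In it, Pml, which forms nuclear bodies and restricts several viruses, came closest to the threshold. Pml had 10.3, 9.97, 9.93 and 8.20 CPM in mutant libraries 1 to 4 and 7.49, 6.32, 6.13 and 6.34 CPM in wild-type libraries 1 to 4. Every mutant library lay above every wild-type library, and the nearest libraries were mutant replicate 4 of the second library set and wild-type replicate 1 of the first. Its log2 fold change was 0.55 ± 0.10 (SE, adjusted p = 0.138) on genotype alone. With the set as a term it was 0.41 ± 0.08 (SE, adjusted p = 0.035), past the threshold, as it also was by DESeq2 (adjusted p = 0.000181). In each of these fits Pml was the 1 gene called of the 114 tested genes of the pathway lists. Of all genes, 0.677% were called with the set as a term and 2.02% by DESeq2. Without mutant replicate 4 the adjusted p was 0.0197, and over all the alternatives tried it ran up to 0.5. Shisa5 had 0.16 ± 0.06 (SE, adjusted p = 0.296), and Ifit2, the neighbour of Ifit1 and Ifit3 in function and place, had 0.16 ± 0.15 (SE, adjusted p = 0.628), a direction that turned to -0.10 ± 0.08 with the set as a term.

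The 16 genes of MHC class I presentation, another known target of interferons, were all tested; 0 were called, 9 lay above 0 and 7 below, and the median was 0.01. Nlrc5, the activator of class I genes, had -0.34 ± 0.21 (SE, adjusted p = 0.468), and Erap1, which trims peptides for presentation, 0.17 ± 0.10 (SE, adjusted p = 0.470). Over the 114 tested genes of the pathway lists, in which the 9 members are not counted, 66 had log2 fold changes above 0 and 48 below, with a median of 0.05, and 0 were called by edgeR on genotype alone. An unadjusted p under 0.05 was found for 14 in the higher and 2 in the lower direction, together 14.0% of them and close to the 13.7% of all genes. All mutant libraries lay above all wild-type libraries for 6 (5.26%, against 2.94% of all genes), and all below for 1.

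**Figure D5:**
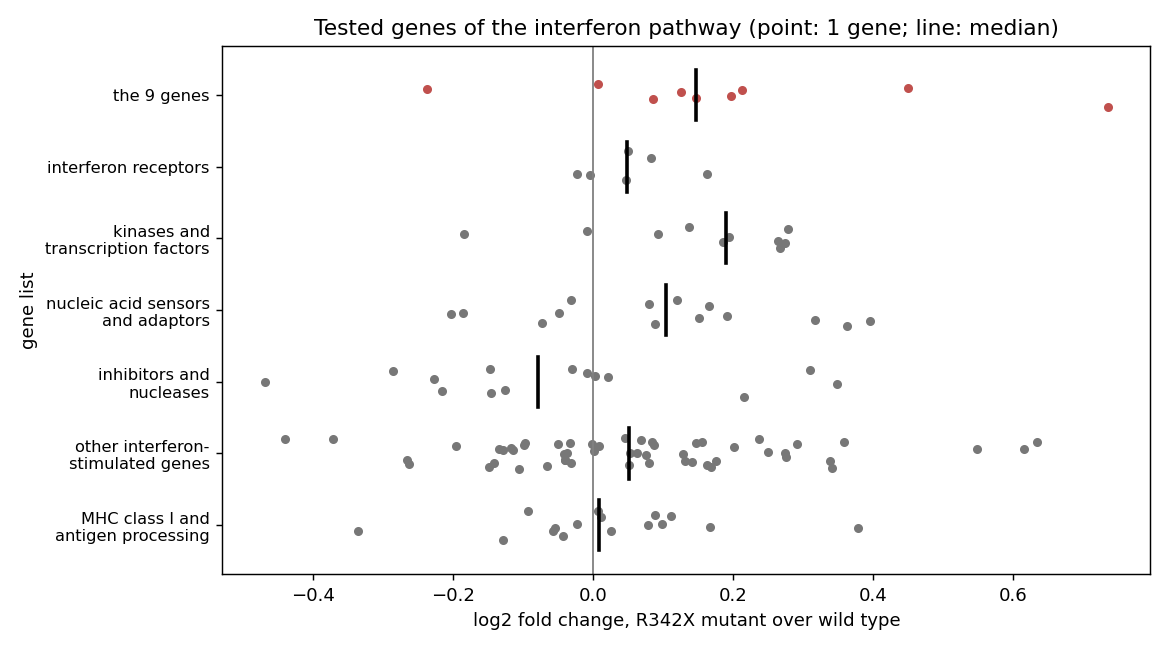
Log2 fold change (mutant over wild type) of each tested gene, by pathway list, with the median of each list as a line. The members' median is 0.15, and the other medians lie between -0.08 and 0.19.

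In the authors' deposited table all 9 members were listed and 4 had an adjusted p, of which 0 were under 0.05. These were 0.703 for Bst2, 0.752 for Ifitm3, 0.919 for Irf9 and 0.958 for Stat2 in the authors' deposited table. Irf7 was the 1 member with an unadjusted p under 0.05 there (p = 0.026 in the authors' deposited table). The log2 fold changes of the members in the authors' deposited table lay between -0.00678 and 0.0131, on a scale on which the central 50% of all its genes lay between -0.00576 and 0.00574, so their size is not comparable with the values above. Stat2 (-0.00678) and Isg15 (-0.000287) lay below 0 and Ifit1 (0.000924) above 0 in the authors' deposited table. These signs are opposite to those on genotype alone above. Each value is smaller than its SE there, as is that of every other member, Irf7 included. That table gave an adjusted p under 0.05 to 417 of 14991 genes with one.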

How the data were processed

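Messenger RNA libraries were made from frozen cortex, per the labels' protocols. Per the file headers, the authors deposited for each library and transcript an estimated count (expected count) and a TPM value. The submitters' processing notes name Salmon 0.12.0, DESeq2 and the GRCm38 build, and whether counting used strand is not given in the sources used here. For every gene, the table the authors deposited holds a mean level (signal), a log2 fold change and a p-value, per its header, without naming its model.

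Estimated counts of 136202 transcripts were summed by gene symbol and rounded to whole numbers. Genotypes were compared in edgeR 4.0.16 (R 4.3.3) with TMM scaling, the default filter on low counts and the quasi-likelihood F test, two-sided, and p-values were adjusted by Benjamini-Hochberg over all 20083 genes tested, and a gene was called at an adjusted p under 0.05. The SE of a log2 fold change and its 95% interval were derived from the F statistic. The procedure was tested on simulated data without a difference between library sets. The changed genes in it had higher levels than Ifit1, Ifit3, Isg15 and Irf7 and larger fold changes than any member. It therefore does not show how well changes of the members' size would be found. Alternatives were the size factors and the Wald test of DESeq2 1.42.0, no filter on low counts, at least 5 CPM in at least 4 libraries, limma 3.58.1 on log2(TPM + 0.5), the replicate number as a block, the library set as a term, and each library left out. The fit of the library set is not independent of the data, since the sets were read from their first principal component.

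The members and all lists were chosen with earlier results of these data known. All members were named, then from each pathway list the called genes or otherwise the 2 with the smallest p, from each marker list the called genes or otherwise the 1 with the smallest p, and the 5 genes most like the members' mean among those with an average log2 CPM of at least 1. Ifit2 and the markers called with the library set as a term were named outside this rule. The values of 1 gene of the pathway lists are not reported here, though it is in the counts. Promoter sequences are those of RefSeq on GRCm38, and gene positions, overlaps and transcript types those of GENCODE M21. Low levels limit precision, since Ifit1, Ifit3, Isg15 and Irf7 had at most 37 estimated reads in any library; limits of a count of 0 cover counting error only.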

Additional observations from a re-analysis of the deposited data

Results flagged for a closer look

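Stat2 in wild-type replicate 1 stood far from the other libraries of its group, with 34.7 CPM against 23.5 to 23.9 CPM in wild-type replicates 2, 3 and 4. Wild-type replicate 1 is the only wild-type library of the first library set, in which the mutant libraries had 30.5 to 33.1 CPM. The gap passed Dixon's 95% critical value for 4 libraries in 1 of 18 groups examined, and chance alone gives about 1 in 20.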

How the results depend on the processing

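Calls among the 9 members numbered 0 on genotype alone and 0 under each of 16 alternatives, and also 0 to 0 when 1 library was left out, though the stricter filter left 2 members to test; the lowest adjusted p of any member was 0.068, for Ifit3 without wild-type replicate 1. The members' median log2 fold change of 0.15 ran from 0.10 without wild-type replicate 2 to 0.23 without wild-type replicate 1, where Isg15 was not tested. The number of genes called, 4 on genotype alone, was 406 by DESeq2's Wald test, 13 with no filter on low counts and 136 with the library set as a term, and ran from 3 without mutant replicate 2 to 702 without mutant replicate 4, with 14 without wild-type replicate 1; the causes were not tested. Whether replicate numbers pair the samples was not settled. Correlations of same-numbered libraries were 0.245, -0.029, -0.085 and 0.321 for replicates 1 to 4. The highest with another number were -0.072, 0.204, 0.131 and 0.184, and 2 of 4 mutants correlated best with their own number. A block for the replicate number gave 20 calls.

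Of 136 log2 fold changes of single members under the alternatives, 127 kept their direction and 9 reversed. The tally includes alternatives that could hardly turn a direction. Summing Ifit3 with Ifit3b left the reads of the other members unchanged, and the size factors of DESeq2 gave nearly the same values. With the library set as a term, Ifit1 had 0.080, Isg15 -0.050 and Stat2 -0.11. Isg15 ran from -0.086 without mutant replicate 2 to 0.26 without mutant replicate 3, and Bst2 from -0.017 without mutant replicate 4 to 0.20 without mutant replicate 2. Ifitm3 ran from -0.18 without mutant replicate 4 to 0.13 without mutant replicate 1, and had -0.014 with the replicate block. When libraries were left out, Ifit3 ran from 0.67 to 0.85, Oasl2 from 0.33 to 0.54, Irf9 from 0.14 to 0.28, Irf7 from 0.056 without mutant replicate 4 to 0.41 without mutant replicate 1, Stat2 from 0.087 without mutant replicate 2 to 0.31 without wild-type replicate 1, and Ifit1 from -0.47 without mutant replicate 4 to -0.045 without mutant replicate 1. Pml, a gene of the longer list, passed the threshold in 3 alternatives, among them leaving out mutant replicate 4 (adjusted p = 0.0197). With 5.6 to 35.4 estimated reads per library for Isg15 and Ifit1, depth limits what could be seen for the members of low level.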
